A study of Mus musculus with 8 samples.

Results

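Heat shock proteins and their co-chaperones were taken as the non-control probes whose gene symbol begins with Hspa, Hspb, Hspd, Hspe, Hsph or Hsp90, with Dnaja, Dnajb or Dnajc and a number, or is Bag1 to Bag5. The rule found 78 genes with 117 probes, of 30397 genes with 39429 probes on the array, and 70 of the 78 genes were bright enough to be tested, against 19843 genes in all. The rule reads symbols and no measured value, although the group was proposed with earlier results of these data known.

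Striatal RNA of adult female mice was compared between 4 wildtype samples and 4 samples heterozygous for a gene trap in Brd2 (Brd2+/-), a BET family reader of acetylated histones. All animals came from heterozygous crosses on a C57Bl/6J background, so wildtype and heterozygous mice shared their breeding, and no sample was treated or heat-shocked. The trap is present in every cell of the animal, and the tissue field of the labels names the prefrontal cortex beside the striatum. Each 2-colour Agilent array carried 2 samples of 1 genotype, replicates 1 and 3 in Cy3 and replicates 2 and 4 in Cy5. The study's design text calls the samples biological replicates without saying whether each was a single animal, and p-values cover only the spread among these 8 samples.

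Chaperones bind unfolded or misfolded stretches of other proteins. HSP70 does so in cycles of ATP hydrolysis that J-domain proteins (the DNAJ families) start and that HSP110 and BAG proteins end by releasing ADP, and it hands some clients on to HSP90 or to the chaperonins. Most families have one branch that is always on and one that the transcription factor HSF1 switches on during heat or proteotoxic stress, with further branches in the endoplasmic reticulum and the mitochondria. In neurons the same machines also uncoat clathrin vesicles and keep synaptic vesicle proteins folded.

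Brd2 itself was measured first. Its log2 intensities were 12.97, 13.11, 12.52 and 12.82 in wildtype replicates 1 to 4 and 11.79, 11.96, 12.44 and 11.83 in heterozygous replicates 1 to 4, a mean of 55.4% of wildtype (exact two-sided permutation test, p = 0.0286, the smallest that 4 against 4 allows). Any gene whose groups do not overlap reaches that p, and 8.72% of genes with a value in every sample did so. By the limma test applied to the chaperones below, Brd2 had an adjusted p of 0.429 and did not pass 0.05. The library labelled heterozygous replicate 3 was the highest of its group for Brd2, just below the lowest wildtype sample. Spots well above background made up 37.7% to 47.6% of all spots in the Cy3 samples and 65.9% to 75.5% in the Cy5 samples. The number of arrays limits the precision of every value. All 15 markers of striatal projection neurons were measured above the filter and all 15 were lower in heterozygous samples (median difference -0.43 on the log2 scale), while all 10 markers of cortical excitatory neurons were higher (median 0.85). The median level of the striatal list ran from -0.05 to 0.11 in wildtype and from -1.08 to 0.14 in heterozygous samples, and that of the cortical list from -0.16 to 0.48 and from 0.16 to 1.53. Of 11 choroid plexus markers 9 were higher (median 0.50), and their level was 1.86 in heterozygous replicate 3 against -0.52 to 0.42 in the other 7 samples. Of 8 markers of meninges and fibroblasts 7 were higher (median 0.30), with levels of -0.08 to 0.08 in wildtype and 0.20 to 0.37 in heterozygous samples. All 5 red blood cell markers were lower (median -0.49). The medians of the other lists ran from -0.31 (ependymal and other ciliated cells) to 0.16 (oligodendrocytes). In bulk tissue, fewer cells of a type and less RNA per cell cannot be told apart, and the part of tissue makeup in the chaperone values below was not tested.

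The heat shock protein and co-chaperone genes as a whole lay at the same level in both genotypes within the spread of the samples. Over the 70 tested genes the median difference, heterozygous minus wildtype, was 0.01 on the log2 scale, with 36 genes higher and 34 lower, beside a median of -0.02 over all genes tested. The per-sample median of the 70 genes, taken against the wildtype means, was 0.02, 0.01, -0.02 and -0.02 in the wildtype samples and 0.03, -0.01, -0.01 and 0.05 in the heterozygous samples, so the genotypes overlapped. Single genes differed little: 63 of the 70 (90%) had a difference under 0.5 in size, or about 1.41-fold, and the share over all genes was 93.9%. The median size of a difference was 0.146 for the chaperones and 0.141 for all genes, about as large as the median standard error of 0.154.

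None of the 70 genes passed an adjusted p of 0.05 in limma with Benjamini-Hochberg adjustment over all genes, where 0% of all genes did (0 of 19843). The smallest adjusted p among the chaperones was 0.426, and that over all genes was 0.133. The trapped gene Brd2, at 0.429, did not pass either, so a chaperone without a call may still differ between the genotypes. At an unadjusted p under 0.05, limma called 4 of the 70 chaperones (5.71%) and 8.69% of all genes. Of these 4, Hspa1a and Dnajc19 were higher (3.9% of all genes were) and Bag5 and Dnajb14 were lower (4.8% of all genes were). Among the 59 chaperones with a value in all 8 samples, wildtype and heterozygous values did not overlap for 2 (3.39%), against 8.72% of all such genes. These 2 were Hspa1a, higher (3.28% of all such genes were), and Hspa14, lower (5.44% were), the latter named after its values were seen. The share called was below that over all genes in 15 of the 22 alternative settings and above it in 7, among them the processed signals (8.57% against 6.49%), so it gave no steady difference from the background.

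**Figure D1:**
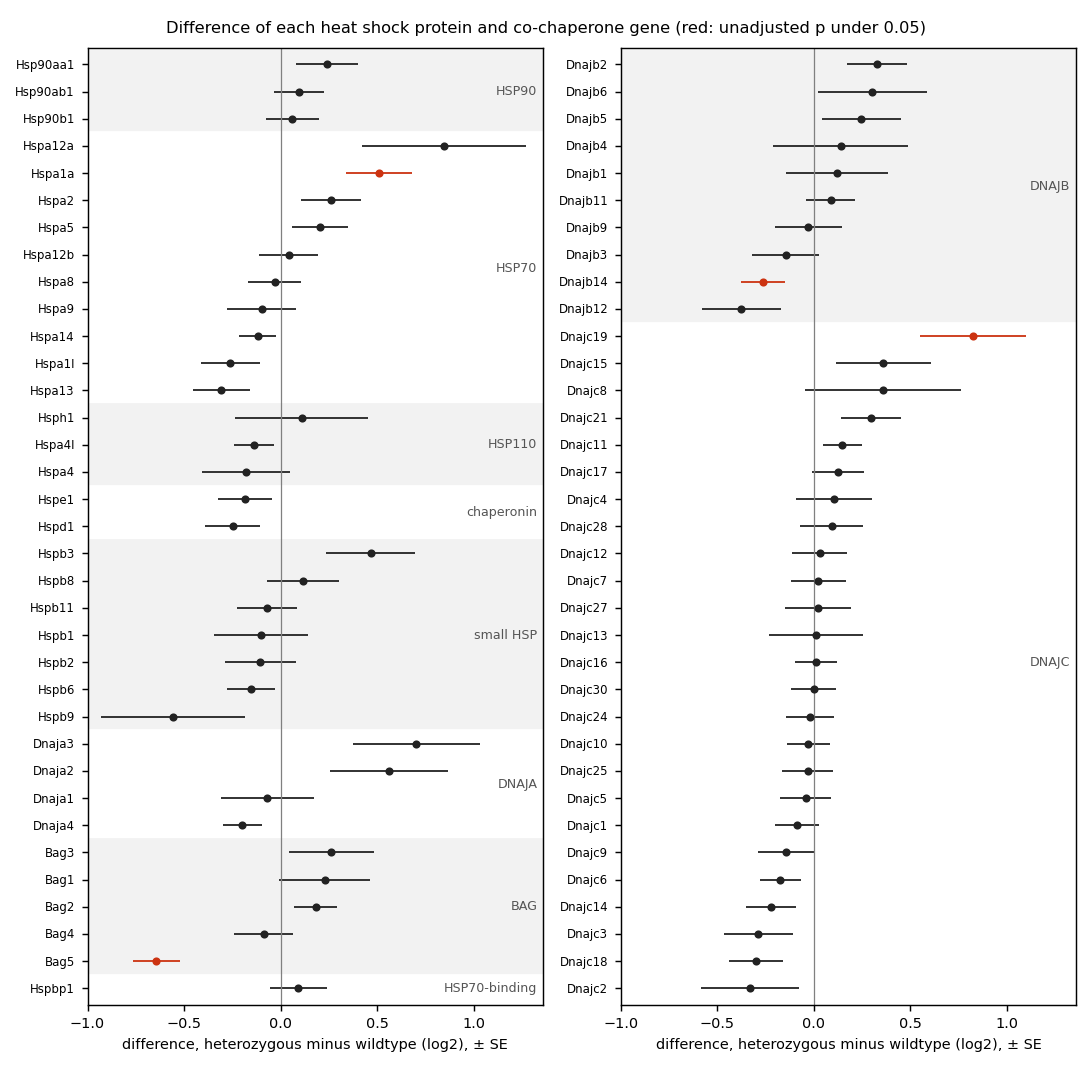
Difference of each of the 70 tested genes, heterozygous minus wildtype, on the log2 scale (horizontal axis), with points for the estimate and bars for ± 1 SE from limma over 8 samples, grouped by family on shaded bands. Red marks the 4 genes with an unadjusted p under 0.05 (Hspa1a, Dnajc19, Bag5 and Dnajb14), none of which passed the adjusted threshold, and most other bars reach or lie near 0.

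The HSP90 family holds the most abundant client-maturing chaperones of the cell. Hsp90aa1, the stress-inducible cytosolic form, measured 15.20, 15.36, 14.82 and 15.03 in wildtype replicates and 15.50, 15.05, 15.37 and 15.45 in heterozygous replicates, a difference of 0.24 (SE 0.159, limma adjusted p = 0.669). The groups overlapped, with heterozygous replicate 2 among the wildtype values. Hsp90ab1, the constitutive cytosolic form, measured 16.54 ± 0.09 in wildtype against 16.63 ± 0.20 in heterozygous samples (SD, n = 4 each), and Hsp90b1, the endoplasmic reticulum form also called GRP94, 14.26 ± 0.15 and 14.32 ± 0.19 (SD, n = 4 each). All 3 differences were above 0, with a median of 0.09, but all 3 turned below 0 when the deposited value table was used in place of normalized intensities (median -0.17), and Hsp90ab1 also did so with the scanner software's processed signals (-0.21).

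Hspa8, the constitutive HSC70 that uncoats clathrin vesicles, was measured at 16.92, 17.18, 16.95 and 16.81 in wildtype replicates and 17.09, 16.72, 16.84 and 17.09 in heterozygous replicates. The genotypes were interleaved, and the difference of -0.03 (SE 0.137) was smaller than its error. Hspa5, the endoplasmic reticulum HSP70 also known as BiP, measured 14.20, 14.51, 14.58 and 14.25 in wildtype replicates and 14.45, 14.40, 14.71 and 14.77 in heterozygous replicates, a difference of 0.20 (SE 0.144) that the processed signals turned to -0.055. Heterozygous replicates 3 and 4 were the highest of the 8 samples, and the other 2 lay among the wildtype values. Hspa9, the mitochondrial HSP70 mortalin, measured 12.49 ± 0.20 and 12.39 ± 0.30 (SD, n = 4 each). Hspa13, a microsomal HSP70 relative, measured 10.99 ± 0.12 in wildtype against 10.69 ± 0.24 in heterozygous samples (SD, n = 4 each), a difference of -0.31 (SE 0.146, limma adjusted p = 0.592). The difference of Hspa13 was -0.17 without heterozygous replicate 2, and its dimmer second probe, well above background in 4 samples, gave 0.19. Over the 10 HSP70 genes 5 were higher and 5 lower, with a median difference of 0.01.

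Hspa1a, one of the 2 near-identical stress-inducible HSP70 genes, was the HSP70 gene with the smallest p. Hspa14 also separated the genotypes, in the other direction, but barely. Its lowest wildtype value was 12.07 and its highest heterozygous value 12.06, with a difference of -0.12 (SE 0.096, limma adjusted p = 0.716). The log2 intensities of Hspa1a were 8.62, 8.58, 8.45 and 8.08 in wildtype replicates and 8.74, 8.82, 8.93 and 9.26 in heterozygous replicates. Every heterozygous value lay above every wildtype value, although the nearest pair differed by little. The difference was 0.51 (SE 0.169), or 1.42-fold, with a limma adjusted p of 0.507. The difference of Hspa1a ran from 0.31 in the Cy3 samples alone to 0.72 with the processed signals, and its unadjusted limma p rose from 0.0171 to 0.0647 in the deposited value table. The value was well above background in 7 of the 8 samples. The array has no probe under the name of its copy Hspa1b, so signal from Hspa1b may be read at the Hspa1a probe, and the value is uncertain as to which copy it reports. The Hspa1a probe lies at chr17:35107117-35107176 (mm9, minus strand), 858 kb from the Brd2 probe on the same chromosome. Its neighbour Hspa1l, a testis-enriched HSP70 gene whose probe lies 867 kb from that of Brd2, had a difference of -0.26 (SE 0.155), and Hsp90ab1 lies farther off on chromosome 17. The first 30 of the 60 bases of the Hspa1a probe, which read the transcript from its base 1925, are shown because the call rests on this probe alone.
Hspa1a probe: tgacaagaagaaggtgctggacaagtgcca

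**Figure D2:**
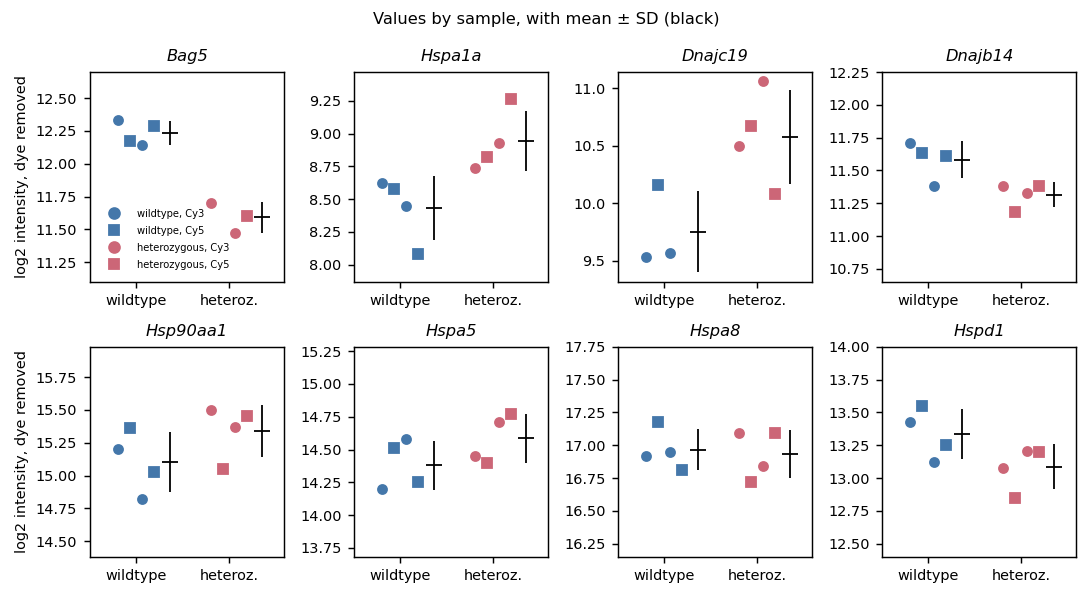
Log2 intensity, after removal of the dye effect, of 8 chaperone genes in each sample (points; circles Cy3, squares Cy5; blue wildtype, red heterozygous), with the group mean ± SD in black; Bag5 lacks heterozygous replicate 2 and Dnajc19 lacks wildtype replicate 4. Bag5 and Hspa1a separate the genotypes, whereas Hspa8, Hspa5, Hsp90aa1 and Hspd1 overlap between them.

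HSP110 proteins act as nucleotide exchange factors for HSP70 and take part in pulling apart aggregates. Hsph1, the stress-inducible member, measured 14.44, 14.26, 13.47 and 13.23 in wildtype replicates and 14.36, 13.79, 13.34 and 14.34 in heterozygous replicates. The spread within each genotype was larger than the difference of 0.11 (SE 0.347). Hspa4 measured 11.86 ± 0.27 in wildtype against 11.68 ± 0.40 in heterozygous samples, and Hspa4l 12.12 ± 0.10 and 11.98 ± 0.08 (SD, n = 4 each). The family median was -0.14, with 1 of 3 genes higher.

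Hspd1 (HSP60) and Hspe1 (HSP10) form the folding chamber of the mitochondrial matrix and are transcribed in opposite directions from 1 shared promoter. Hspd1 measured 13.43, 13.55, 13.12 and 13.25 in wildtype replicates and 13.08, 12.85, 13.21 and 13.20 in heterozygous replicates, a difference of -0.25 (SE 0.141, limma adjusted p = 0.642). Hspe1 measured 12.70, 12.92 and 12.78 in wildtype replicates 1, 3 and 4 and 12.44, 12.74, 12.77 and 12.52 in heterozygous replicates, a difference of -0.18 (SE 0.140, limma adjusted p = 0.706). Both genotypes overlapped for both genes. The other 2 probes of Hspe1 gave -0.21 and -0.30, so all 4 probes of the pair had the same sign. The probe with -0.21 starts at base 629 and the brightest at base 632. These 2 overlap almost fully and are not separate readings. The median of the pair remained below 0 in every alternative and with each sample left out, between -0.37 and -0.14.

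Small heat shock proteins hold unfolding proteins without using ATP. Of the 7 measured genes, grouped by their Hspb symbol, 2 were higher and 5 lower, with a median of -0.10. Hspb11 (-0.07) counts among the 5 by its symbol alone. Hspb1 (HSP27), induced by stress in glia and neurons, measured 11.82 ± 0.39 in wildtype against 11.72 ± 0.36 in heterozygous samples (SD, n = 4 each). Hspb3, best known from muscle, measured 7.77 ± 0.14 and 8.23 ± 0.47 (SD, n = 4 each), a difference of 0.47 (SE 0.230, limma adjusted p = 0.596), and was well above background in 4 of the 8 samples. Hspb9, a testis form, was at 7.45, 8.51, 9.44 and 8.22 in the heterozygous samples and between 8.85 and 9.14 in wildtype. Its heterozygous samples lay on both sides of the wildtype range, and the difference of -0.56 had an SE of 0.374.

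J-domain proteins bring clients to HSP70 and start its ATP hydrolysis, and they form the largest group here. The 4 type A genes had a median difference of 0.25, the 10 measured type B genes 0.10 and the 25 measured type C genes 0.01, with 2, 6 and 13 genes higher in turn. Dnaja1, the main cytosolic HSP40 of type A, measured 14.19 ± 0.16 in wildtype against 14.12 ± 0.49 in heterozygous samples (SD, n = 4 each). Dnaja3, a mitochondrial form, measured 11.38, 11.55 and 10.35 in wildtype replicates 1 to 3 and 11.93, 11.75, 12.11 and 11.39 in heterozygous replicates. The difference was 0.70 (SE 0.330, limma adjusted p = 0.593), and the difference of Dnaja3 was 0.33 without the low wildtype replicate 3 and 0.02 in the Cy5 samples alone. Dnaja4, a form linked to sterol metabolism, measured 12.16 ± 0.08 and 11.96 ± 0.09 (SD, n = 4 each), a difference of -0.20 (SE 0.101). The type A median became -0.08 when the probe nearest to the 3′ end was used for each gene, which gave 0.04 for Dnaja1 and -0.31 for Dnaja2.

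Dnajb1 (HSP40), the main stress-inducible type B protein, measured 12.39, 12.74, 13.42 and 13.37 in wildtype replicates and 13.36, 13.30, 12.98 and 12.76 in heterozygous replicates. The wildtype values spread over about 1 log2 unit and enclosed all 4 heterozygous values. Dnajb2, a neuronal form that passes clients to the proteasome, measured 12.40, 12.17 and 12.28 in wildtype replicates 1, 3 and 4 and 12.45, 12.42, 12.77 and 12.81 in heterozygous replicates. Its groups did not overlap, with 1 wildtype value missing, and the difference was 0.33 (SE 0.154, limma adjusted p = 0.593). The second Dnajb2 probe gave -0.04. Dnajb14, a membrane protein of the endoplasmic reticulum, measured 11.71, 11.63, 11.38 and 11.61 in wildtype replicates and 11.38, 11.18, 11.33 and 11.38 in heterozygous replicates. Wildtype replicate 3 lay at the heterozygous level and the other 3 wildtype samples lay above it. The difference was -0.26 (SE 0.114, limma adjusted p = 0.573), and the second probe, for another transcript of the gene, gave 0.02.

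Among the type C proteins, Dnajc19 of the mitochondrial import motor had the largest difference. It measured 9.53, 10.16 and 9.57 in wildtype replicates 1 to 3 and 10.50, 10.67, 11.06 and 10.08 in heterozygous replicates. Wildtype replicate 2 lay above heterozygous replicate 4, so the groups overlapped by 1 value on each side. The difference was 0.82 (SE 0.276), or 1.77-fold, with a limma adjusted p of 0.516. The value fell to 0.21 in the Cy5 samples alone and rose to 1.23 in the Cy3 samples alone. A second probe, for another transcript of the gene, measured 9.69, 9.58, 9.67 and 9.84 in wildtype replicates and 9.66, 9.46, 10.10 and 10.23 in heterozygous replicates, a difference of 0.17 (SE 0.181). On that probe the groups were interleaved.

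The 2 probes of Dnajc19 are shown because they gave different sizes. They lie at chr3:33976275-33976334 and chr3:33956895-33956954 (mm9, minus strand), and their first 30 of 60 bases follow.
Dnajc19 brightest probe: catgttttgtaataaaaatgcctcagagct
Dnajc19 second probe: ttccacttcctacgatcaaaacaaaaaccc

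Of the other type C proteins, Dnajc5 and Dnajc6 have neuronal roles. Dnajc5, the cysteine string protein that protects synaptic vesicle SNARE proteins, was at 15.71, 15.99, 15.63 and 15.78 in wildtype replicates and 15.86, 15.51, 15.83 and 15.74 in heterozygous replicates. Its genotypes were interleaved, with a difference of -0.04 (SE 0.130). Dnajc6, the neuronal auxilin that recruits Hspa8 to clathrin coats, measured 7.93 ± 0.06 and 7.75 ± 0.14 (SD, n = 4 each), and was well above background in 4 of the 8 samples. Dnajc18 measured 9.23 ± 0.21 in wildtype against 8.93 ± 0.14 in heterozygous samples (SD, n = 4 each), a difference of -0.30 (SE 0.139, limma adjusted p = 0.591). The 5 genes grouped here under synaptic vesicle and endocytic traffic (Hspa8, Dnajc5, Dnajc6, Dnajc13 and Dnajc27) had a median of -0.03. None had an unadjusted p under 0.05 in limma. The place of Dnajc27 in this group was assumed, and it was well above background in 4 of the 8 samples.

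BAG proteins release ADP and clients from HSP70 and couple it to other machines. Bag5, a form with several BAG domains that holds back HSP70 and the ubiquitin ligase parkin, gave the smallest p of all 70 genes. Its values were 12.33, 12.17, 12.14 and 12.29 in wildtype replicates and 11.70, 11.47 and 11.60 in heterozygous replicates 1, 3 and 4, with the spot of replicate 2 left out as an outlier. All 3 heterozygous values lay well below all 4 wildtype values. The difference was -0.64 (SE 0.121), or 0.640-fold, with an unadjusted p of 0.00116 and a limma adjusted p of 0.426. The library labelled heterozygous replicate 3, highest of its group for Brd2, was the lowest for Bag5, and the difference of Bag5 without it was -0.59. The second Bag5 probe measured 11.13, 11.36, 10.77 and 11.01 in wildtype replicates and 10.87, 10.56, 10.94 and 10.79 in heterozygous replicates, a difference of -0.28 (SE 0.150) with overlapping groups.

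The brightest Bag5 probe is shown because the smallest p rests on it. It lies at chr12:112948069-112948128 (mm9, minus strand) and starts at base 1708 of its transcript, and the first 30 of its 60 bases follow.
Bag5 brightest probe: tcagtatttctgctgcttttgatgttgcaa

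The other BAG genes were not lower as Bag5 was. Bag1, an HSP70 partner that binds the proteasome, measured 13.89 and 14.26 in wildtype replicates 3 and 4 and 14.31 ± 0.29 in the heterozygous samples (SD, n = 4), with a difference of 0.23 (SE 0.236) against -0.06 on its second probe. Bag2, an inhibitor of the ligase CHIP, measured 8.96 ± 0.13 and 9.14 ± 0.09 (SD, n = 4 each). Bag3, the stress-inducible partner of Hspb8 in selective autophagy, measured 9.65 ± 0.33 and 9.91 ± 0.33, and Bag4 9.10 ± 0.05 and 9.02 ± 0.28 (SD, n = 4 each). None of these 4 had an unadjusted p under 0.05 in limma. Hspbp1, an HSP70 nucleotide exchange factor, measured 11.85 ± 0.15 and 11.95 ± 0.23 (SD, n = 4 each).

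**Figure D3:**
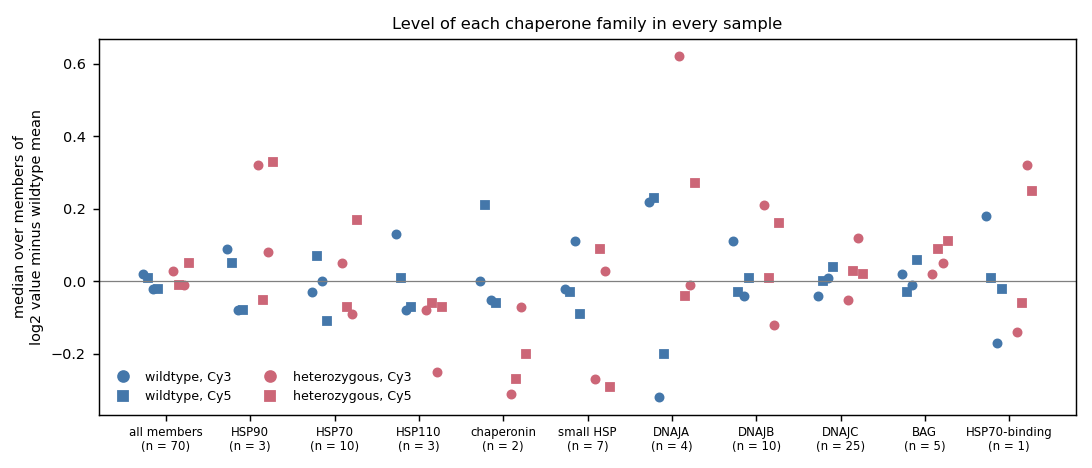
Level of each family in each of the 8 samples, as the median over its tested genes of the log2 value minus the gene's wildtype mean (circles Cy3, squares Cy5; blue wildtype, red heterozygous); the 0 line is the wildtype mean. The chaperonin pair is the one family whose heterozygous samples (-0.31 to -0.07) all lie below the wildtype samples (-0.06 to 0.21), by a narrow gap, and in HSP110 heterozygous replicate 3 stands alone at -0.25.

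Grouped by place and role, the genes gave medians between -0.06 and 0.12. The 12 measured stress-inducible genes had a median of 0.04, with 6 higher and 6 lower. Of the 10 endoplasmic reticulum genes 3 were higher and 7 lower (median -0.06), with Hspa5, Hsp90b1 and Dnajb11 the higher ones and Dnajb12, Hspa13, Dnajc3 and Dnajb14 the lowest. Of the 10 mitochondrial genes 6 were higher and 4 lower (median 0.10). Their per-sample level ran from -0.07 to 0.04 in wildtype and from 0.07 to 0.21 in heterozygous samples, so the genotypes did not overlap there. This separation was noticed after the values were seen and carries no test. The 7 genes that suppress aggregation or serve HSP110 disaggregation had a median of 0.12, with 5 higher and 2 lower. In limma, an unadjusted p under 0.05 was reached by 1 stress-inducible gene (8.33%), 1 endoplasmic reticulum gene (10%) and 1 mitochondrial gene (10%). None of the 7 aggregation genes reached it, and the share over all genes was 8.69%.

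Some chaperones varied more within a genotype than most genes. The pooled within-genotype SD was 0.688 for Hspa12a, 0.651 for Dnajc8, 0.588 for Hspb9, 0.543 for Hsph1 and 0.542 for Dnajb4, all above the 94th percentile of all genes tested, while the median over the chaperones was 0.206 against 0.197 over all genes. Hspa12a also had the largest difference of the 70 genes, 0.85 (SE 0.425, limma adjusted p = 0.609). It measured 8.29, 10.17 and 9.37 in wildtype replicates 1, 3 and 4 and 10.44, 10.16, 9.88 and 10.01 in heterozygous replicates, with overlapping groups. Dnajb4, an HSP70 partner of type B, measured 9.78, 9.52, 9.05 and 9.69 in wildtype replicates and 10.23, 8.87, 9.26 and 10.24 in heterozygous replicates. Dnajb6, a strong suppressor of polyglutamine aggregation, measured 11.10 ± 0.26 in wildtype against 11.40 ± 0.56 in heterozygous samples (SD, n = 4 each), with heterozygous replicates 1 and 4 above all other samples. Hsph1, Dnaja2, Dnajb4 and Dnajb6 were all high in heterozygous replicates 1 and 4 relative to heterozygous replicates 2 and 3. Other chaperones also had this split, such as Hsp90ab1, Hspa9 and Dnaja1, while Hspa4 and Hspe1 had the reverse. It was noticed after the values were seen and carries no test, and the share of all genes with it was not counted. The striatal projection neuron markers lay higher in heterozygous replicates 1 and 4 (0.14 and -0.12) than in replicates 2 and 3 (-0.67 and -1.08). Their part in the split was not tested.

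Probes of 1 gene did not always report the same spread. Hspa8 has 3 probes, at bases 730, 1812 and 2044 of 1 transcript, whose highest and lowest samples differed by 2.39, 1.01 and 0.46 log2 units. The probe at base 730 measured 13.54, 13.07, 13.62 and 12.83 in wildtype replicates and 14.15, 13.33, 11.76 and 13.86 in heterozygous replicates, with the library labelled heterozygous replicate 3 far below the rest. Dnajb6 has 4 probes, and the 2 nearest the start of their transcript ranged over 1.27 and 1.17 while the 2 that lie near base 2550 of another transcript ranged over 0.59 and 0.47. Dnaja1 ranged over 1.06 at base 1393 and 0.36 at base 3377, and Dnaja2 over 1.52 at base 1661 and 0.86 at base 2770. Of the 19 chaperone transcripts with 2 or more probes past the filter, the range was wider at the earliest probe for 14 and at the latest for 5, which were those of Dnajc5, Dnajc8, Dnajc21, Hspa4 and Hsph1. Hsph1 ranged over 0.83 at base 2728 and 1.22 at base 3094, and Dnajc8 over 0.60 at base 693 and 1.74 at base 1076. Some of the 14 pairs lie close together, such as Dnajb6 at bases 2544 and 2550 and Bag1 at bases 1267 and 1289. In others the earlier probe was dimmer, such as Dnajb9, well above background in 5 samples against 8. The same share over all transcripts was not counted, and the parts of position and brightness were not tested. Across the 297 transcripts of the array with 2 probes at least 1500 bases apart, the median of the earlier minus the later probe, relative to wildtype, lay between -0.12 and 0.09 in the 8 samples.

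The Hspa8 probes are shown because the same transcript gave 3 different ranges. They lie on the plus strand of chromosome 9 (mm9), the earliest at chr9:40611142-40611201 and the brightest at chr9:40613223-40613282, and their first 30 of 60 bases are given in order along the transcript.
Hspa8 probe at base 730: ttgaggtcaaatcaacagctggagacaccc
Hspa8 probe at base 1812: atcagctggctggataagaaccagagtgca
Hspa8 probe at base 2044: ttgttccacagggacccaaaacaagtaaca

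**Figure D4:**
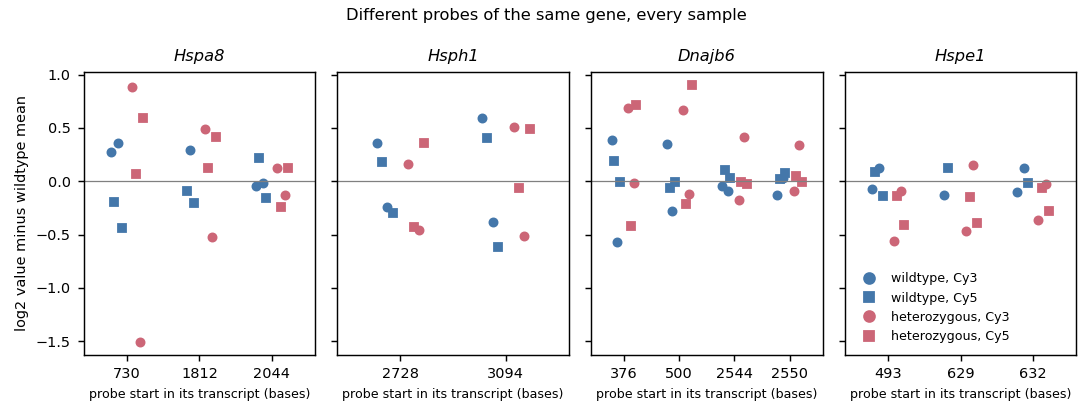
Log2 value minus the wildtype mean at each probe of Hspa8, Hsph1, Dnajb6 and Hspe1 in every sample (circles Cy3, squares Cy5; blue wildtype, red heterozygous), with probes in order of their start base in their own transcript; the first 2 and last 2 Dnajb6 probes belong to different transcripts. The range over samples narrows from 2.39 to 0.46 along Hspa8 and widens from 0.83 to 1.22 along Hsph1.

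In all, 23 of the genes had 2 or more probes past the filter, with 31 further probes beside the brightest. Of these 31, 13 had the sign of the brightest probe, the median gap was 0.223 and the largest was 0.875, at Dnaja2 (0.56 against -0.31). Among the 16 further probes whose brightest probe exceeded its own standard error, 8 shared its sign. The 8 genes that did not pass the filter on dim probes were Dnajb7, Dnajb8, Dnajb13, Dnajc22, Dnajc5b, Dnajc5g, Hspb7 and Hspbap1. Of these, Dnajb8 and Dnajc5g were well above background in 2 samples, Dnajc5b in 3, and the other 5 in none.

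Other genes of the heat shock pathway, taken from lists chosen with earlier results of these data known, also had no gene past the adjusted threshold. Hsf1, the master regulator, differed by 0.09 (SE 0.141). Of the 5 measured HSF factors and regulators only Hsf4 had an unadjusted p under 0.05 in limma (20%, against 8.69% of all genes). Its difference was 0.44 (SE 0.173, limma adjusted p = 0.533), while Hsbp1, which binds HSF1, differed by -0.38. Of 29 measured co-chaperones outside the family symbols 3 were higher and 1 lower at that threshold, or 13.8% against 8.69% of all genes. Fkbp4, an immunophilin of steroid receptor complexes, lay between 10.25 and 10.43 in wildtype and between 10.61 and 10.86 in heterozygous samples. The difference was 0.37 (SE 0.108, limma adjusted p = 0.481). Its groups did not overlap, and 3.28% of all genes measured in 8 samples were likewise higher without overlap. Stip1 (HOP), which links HSP70 to HSP90, measured 12.06, 12.02, 12.60 and 12.32 in wildtype replicates and 12.57, 12.65 and 12.76 in heterozygous replicates 1 to 3, with replicate 4 higher still, a difference of 0.50 (SE 0.168, limma adjusted p = 0.510) with wildtype replicate 3 inside the heterozygous range. Neither passed the adjusted threshold.

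The TRiC chaperonin and prefoldin, which fold actin and tubulin, had 12 of 14 measured genes lower (median -0.11), none with an unadjusted p under 0.05 in limma. Pfdn4 differed by -0.16 and Vbp1 by -0.31. Of the 22 genes of endoplasmic reticulum folding and the unfolded protein response, 14 were lower and 2 of these, Xbp1 and Trib3, had an unadjusted p under 0.05 in limma (9.09%, near the 8.69% of all genes). Xbp1, the factor spliced by IRE1, measured 13.28, 13.48, 13.09 and 13.16 in wildtype replicates and 12.96, 12.73, 12.82 and 12.78 in heterozygous replicates, a difference of -0.43 (SE 0.123, limma adjusted p = 0.467), and Trib3 differed by -0.34 (SE 0.107, limma adjusted p = 0.503). Every heterozygous Xbp1 value lay below every wildtype value, as did those of 5.44% of all genes measured in 8 samples. The alpha-crystallins differed by -0.53 (Cryaa) and 0.35 (Cryab), the 11 mitochondrial folding and protease genes had a median of 0.06 (Grpel1 0.13, Htra2 0.26), and the 11 measured immediate-early genes one of -0.12 (Jun 0.50, Egr4 -0.32).

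Promoters were read for the 63 of the 78 genes with an entry in the RefSeq table (GRCm38.p6, 250 bases before to 50 after each start, 81 windows). The heat shock element was searched on both strands as the units GAA, TTC and GAA with 2 bases of any kind between them. It was found in 198 of 32851 promoters (0.603%). Among them were 6 of the 81 chaperone windows, from 4 genes: Dnajb6, Hspd1, Hspe1 and Hsph1. The endoplasmic reticulum stress element, CCAAT and CCACG with 9 bases of any kind between, was found in 39 promoters (0.119%), among them those of Hspa5, Hsp90b1 and Dnajc3, and the second such element, ATTGG and CCACG with 1 base between, in 12 (0.0365%), among them Dnajb11. The matches of Hsph1 and Dnajb11 lay after the start and are not printed. A match is a description of the letters and not a measured binding site. Only exact matches inside the windows were counted, so a gene without one may hold a variant or more distant element.

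The shared Hspd1 and Hspe1 window, at chr1:55088044-55088091, is shown on the strand of each gene because both genes had a difference below 0, and the Dnajb6 window at chr5:29735837-29735879 (plus strand) because Dnajb6 spread widely. Capitals mark the bases of the heat shock element, 2 overlapping matches in the first window.
Hspd1 promoter, minus strand: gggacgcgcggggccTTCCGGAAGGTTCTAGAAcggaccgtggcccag
Hspe1 promoter, plus strand: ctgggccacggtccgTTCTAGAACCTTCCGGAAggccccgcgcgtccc
Dnajb6 promoter, plus strand: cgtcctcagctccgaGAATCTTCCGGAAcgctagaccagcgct

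The endoplasmic reticulum stress element, in capitals, is shown for the 3 genes that hold it before their start, with both of the matches in Hsp90b1. Their differences were 0.20 for Hspa5, 0.06 for Hsp90b1 and -0.29 for Dnajc3, so the 3 carriers did not share a direction. The windows lie at chr2:34772010-34772058 (Hspa5, plus strand), chr10:86705518-86705566 and chr10:86705623-86705671 (Hsp90b1, minus strand) and chr14:118937812-118937860 (Dnajc3, plus strand).
Hspa5 promoter: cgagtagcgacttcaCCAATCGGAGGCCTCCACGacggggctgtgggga
Hsp90b1 promoter, nearer match: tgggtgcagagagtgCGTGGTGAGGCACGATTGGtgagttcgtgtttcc
Hsp90b1 promoter, farther match: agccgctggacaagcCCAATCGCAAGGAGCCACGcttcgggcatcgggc
Dnajc3 promoter: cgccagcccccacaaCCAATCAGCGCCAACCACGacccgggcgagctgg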

How the data were processed

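Total RNA was amplified, labelled with Cy3 or Cy5 and hybridized to 2-colour arrays (design 026655), per the labels' protocols and the file headers. Spot intensity values with local background were extracted by the authors with Agilent Feature Extraction 10.7.3.1, per the file headers. In the value table that the authors deposited, each value is a ratio: a spot's median intensity less its background, divided by the sample's median of that quantity. This matched the scanner values within a relative tolerance of 0.0001, is not log-transformed, and served as an alternative.

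Background was corrected by normexp (offset 50) in limma 3.58.1 (R 4.3.3), and signals were normalized by loess and Aquantile and split into single-channel log2 values. Control spots (1377, beside 43020 others) and outlier spots (230 to 978 per sample) were left out, and no spot was saturated. Probes well above background in at least 4 of 8 samples were kept (25338), and the brightest probe represented a gene. Genes were named through RefSeq (GRCm38.p6) by accession (27234 probes) or symbol (3576). Genes were fitted in limma with genotype and dye as fixed effects, the array as a random block (consensus correlation 0.0079) and Benjamini-Hochberg adjustment over all genes. Since an array carried only 1 genotype, an array effect and a genotype effect cannot be told apart in full. Printed sample values are log2 with the dye effect removed. On simulated data, 61% of 2-fold and 87% of 4-fold changes among 19855 genes were recovered, and 6.33% of the calls were false. The simulated noise was independent between samples, without array effects or shared differences in tissue makeup, so recovery in the real samples may differ.

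Same-numbered samples did not deviate together (correlations 0.16, -0.29, -0.18 and -0.25 over 18583 genes), so they were not paired. The members and lists were chosen with earlier results of these data known. Named were the best-known members, every member with an unadjusted p under 0.05, the 2 smallest p per family, and the 2 smallest p per pathway list with Hsf1. Alternatives changed the background correction, normalization, value source, filters, probe rule, blocks, dye and variance model, or left out 1 sample.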

Additional observations from a re-analysis of the deposited data

Results flagged for a closer look

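The level of the HSP110 family in heterozygous replicate 3 stood apart from the other 3 heterozygous samples. Its median over Hsph1, Hspa4 and Hspa4l was -0.25 relative to the wildtype means, against -0.08 to -0.06 in the other 3. The gap was 0.895 of the range of the group (Dixon's ratio), past its 95% critical value. In the same sample the level of the striatal projection neuron markers was -1.08 (-0.67 to 0.14 in the other 3), that of the choroid plexus markers 1.86 (-0.52 to 0.42) and that of the oligodendrocyte markers 0.58 (-0.09 to 0.09), and the part of these in the HSP110 level was not tested. This was 1 of 78 groups tested, and chance alone marks about 1 in 20.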

How the results depend on the processing

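Over 22 alternatives, 0 chaperone genes passed the adjusted threshold in limma, and of 698 recomputed differences of the 32 named genes 40 changed sign. Of the 40, 21 came with a sample left out, and 19 named genes, Bag5, Hspa1a, Dnajc19 and Hspd1 among them, kept their sign throughout. 3 sign changes were of values above 1 standard error, those of Hspa5 and Hsp90aa1 listed here. The causes were not tested.

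With processed signals the median was -0.064 over all chaperones, -0.080 for DNAJC and 0.054 for BAG, Hsp90ab1 was -0.21 and Hspa5 -0.055. In the deposited value table, 1 gene was higher at an unadjusted p under 0.05 (1.43% against 2.01% of all genes). Medians there were -0.051 over all chaperones, -0.17 for HSP90, -0.10 for HSP70, -0.37 for the chaperonins and -0.024 for BAG. There Hsp90aa1 was -0.042, Hsp90ab1 -0.25, Hsp90b1 -0.17, Hspa5 -0.0028, Hsph1 -0.059, Dnajb1 -0.011 and Bag1 -0.14. Keeping only probes bright in all 8 samples left 1 gene higher (1.85% against 3.85% of all genes) and 1 lower (1.85% against 4.33%), and BAG at 0.23. With the mean of probes 1 gene was lower (1.43% against 4.74% of all genes), BAG was 0.012 and Hspa8 0.023. With outlier spots kept 4 genes were higher (5.71% against 3.99%). With the most 3′ probe, chosen after seeing the data, 1 gene was lower (1.43% against 4.83% of all genes), DNAJA was -0.078, BAG -0.062, Dnaja1 0.042 and Bag1 -0.062. Without the dye term 4 genes were lower (5.71% against 5.41% of all genes), and with trended, robust variances 1 gene was (1.43% against 4.5%).

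In Cy3 alone 1 gene was lower (1.43% against 1.58% of all genes), the median was -0.029 over all chaperones and 0.11 for BAG, Hsp90b1 was -0.043, Hspa8 0.031, Hsph1 -0.11 and Dnajc5 0.18. In Cy5 alone 1 gene of the whole array, no chaperone, passed the adjusted threshold, and 4 chaperones were lower (5.71% against 4.81% of all genes). There HSP70 was at 0.12, HSP110 at -0.0015, BAG at -0.019, Dnaja1 at 0.040, Dnajb1 at -0.025 and Bag1 at -0.048. With the replicate block, 5 genes were higher (7.14% against 4.65% of all genes) and 1 lower (1.43% against 4.67%), and 0 genes passed. The numbers do not pair the samples, and no call past the adjusted threshold changed.

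Leaving out each sample in turn gave 1 to 4 genes higher and 1 to 6 lower at an unadjusted p under 0.05. The 6 came without wildtype replicate 3 (8.57% lower, against 6% of all genes). The 1 higher came without heterozygous replicate 3 (1.43%, against 4.96% of all genes). The share called ran from 4.29% to 12.9% of chaperones and from 4.03% to 11.8% of all genes, at 12.9% against 11.6% without wildtype replicate 3. The median over all chaperones ranged from -0.029 (without heterozygous replicate 4) to 0.033, that of DNAJB from -0.082 (without heterozygous replicate 4) to 0.16, and that of BAG from -0.048 (without wildtype replicate 3) to 0.22. Genes that changed sign ranged from -0.15 to 0.38 (Hsph1), -0.29 to 0.10 (Hspb1), -0.10 to 0.055 (Hspa8), -0.25 to 0.016 (Hspa9), -0.11 to 0.043 (Dnajc5), -0.29 to 0.18 (Dnaja1), -0.22 to 0.055 (Bag4), -0.033 to 0.14 (Hsp90b1), -0.14 to 0.33 (Dnajb1) and -0.048 to 0.50 (Bag1). In data simulated with independent noise and no array effect, 61% of 2-fold changes were recovered. Smaller changes were not simulated.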
